A study of Sus scrofa with 3 samples.

Results

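The red cell microRNAs (miRNAs) miR-144, miR-451 and miR-486 were followed in small RNA libraries from pig liver. They were chosen by name, as the rows for ssc-miR-144, ssc-miR-451 and ssc-miR-486 on all their precursors, which gave 3 of the 411 mature miRNA names in the count files, on 4 precursors. All livers were taken from males on postnatal day 90. The Large White pig (a commercial breed from Europe), the Enshi black pig (a domestic breed from China) and the Chinese wild boar gave 1 library each. No treatment is named, and age, sex and tissue were shared by the 3 libraries, so only breed separates them in the labels. The labels mention 3 male pigs without saying whether each library held 1 animal or a pool, and they name no batch. Breed and individual animal therefore cannot be told apart, no p-value was computed, and every interval is an exact 95% interval for counting error alone.

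miR-144 and miR-451 are cluster mates: both hairpins lie on 1 primary transcript, which the erythroid transcription factor GATA1 switches on as red cells mature. The hairpins part ways after that, since Dicer cuts miR-144, while the short miR-451 hairpin bypasses Dicer and is sliced by Argonaute2. miR-486 comes from within ANK1, the gene of the red cell membrane skeleton protein ankyrin-1, and is made in red cell precursors and in striated muscle. Mammalian red cells lose their nucleus but keep these miRNAs, so blood left in an organ carries them into its RNA. Among known targets, miR-144 represses the antioxidant regulator NRF2 and miR-451 the adaptor 14-3-3 zeta. In the RefSeq gene table for Sscrofa11.1, MIR144 and MIR451 were each other's nearest miRNA gene and both lay within the span of ERAL1, and MIR486-1 lay within that of ANK1. The deposited counts refer to the older build Sscrofa10.2, so no coordinates are given.

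The Large White library held 7343033 miRNA reads, the Enshi black 7730934 and the wild boar 7824836. The hepatocyte miRNA miR-122 ranked 1 in each, at 41.4% of reads in the Large White (41.37 to 41.44), 34.2% in the Enshi black (34.17 to 34.24) and 39.5% in the wild boar (39.46 to 39.53), so the defining miRNA of the labelled tissue led each library. Levels are given as CPM, counts per 1000000 of either a library's own total or its total after scaling by the trimmed mean of M-values (TMM), which assumes that most miRNAs do not differ. The TMM factor of the Large White library was 0.750, that of the Enshi black 1.24 and that of the wild boar 1.08. A miRNA was called higher or lower in 1 library than in another when the ratio reached 2-fold and its interval excluded 1. Changing from TMM to totals moved the median log2 ratio of the 208 miRNAs tested (mean CPM of at least 10) from −0.12 to 0.60 for Enshi black over Large White. For wild boar over Large White it moved from −0.06 to 0.46, and for Enshi black over wild boar from −0.05 to 0.15. All 3 red cell miRNAs were above 10 CPM in every library.

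Together the 3 miRNAs made up 0.411% of the reads in the Large White library (0.407 to 0.416), 0.494% in the Enshi black (0.489 to 0.499) and 0.336% in the wild boar (0.332 to 0.340). Most of these reads were miR-451, which was 68.4% of the 3 in the Large White, 80.6% in the Enshi black and 82.1% in the wild boar library. miR-144 gave 28.9%, 16.2% and 13.3% in the same order, and miR-486 2.75%, 3.20% and 4.66%. The Large White library thus stood apart in how the red cell reads were divided, with a larger part as miR-144. These are shares of reads, and miRNAs can differ in how well they ligate to adaptors, so they are not shares of molecules.

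miR-144 was highest in the Large White library under each scaling tried. It had 8713 reads in the Large White, 6177 in the Enshi black and 3486 in the wild boar library. After TMM scaling these were 1582, 645 and 414 CPM, and on library totals 1187, 799 and 446 CPM. The order was Large White, Enshi black, wild boar on both scales, and each step was wider than its counting interval. By abundance among the 405 names used, miR-144 ranked 53 in the Large White, 75 in the Enshi black and 89 in the wild boar library. The Large White level exceeded the wild boar level 3.82-fold after TMM scaling (3.68 to 3.98) and 2.66-fold on totals (2.56 to 2.77), past the threshold on both. Against the Enshi black library it was 2.45-fold higher after TMM (2.37 to 2.53) but 1.49-fold on totals (1.44 to 1.53), under the threshold. The Enshi black level was 1.56-fold that of the wild boar after TMM (1.50 to 1.63) and 1.79-fold on totals (1.72 to 1.87), under the threshold on both.

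**Figure D1:**
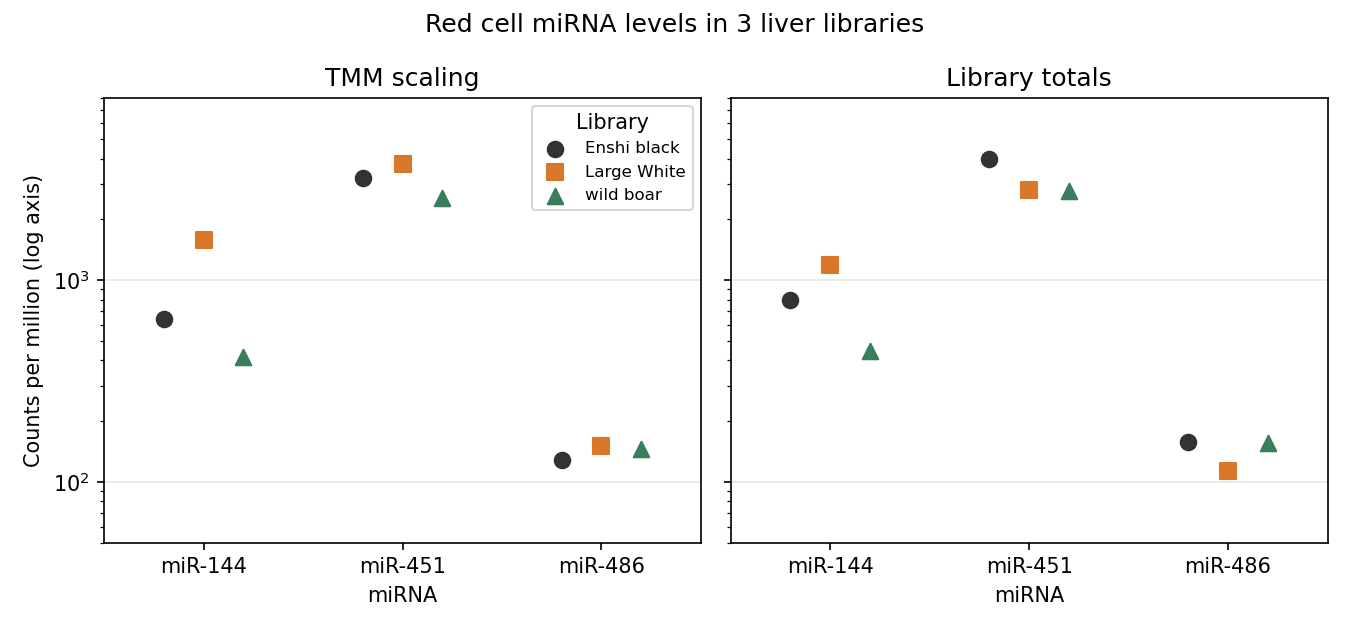
CPM (log axis) of miR-144, miR-451 and miR-486 in the libraries of the 3 breeds, after TMM scaling (left) and on library totals (right), 1 point per library. The Large White point is the highest for miR-144 in both panels, whereas for miR-451 and miR-486 the order of the libraries changes between panels.

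For Enshi black over Large White, miR-144 was thereby 1 of 24 miRNAs called lower after TMM scaling (11.5% of those tested, with 2.4% called higher), and on totals, where it was not called, 2.88% were lower and 27.4% higher. For wild boar over Large White it was 1 of 32 called lower after TMM (15.4%, with 10.1% higher) and 1 of 19 on totals (9.13%, with 21.6% higher). Counted from the lowest of the 208 log2 ratios, it was the 14th for Enshi black over Large White and the 9th for wild boar over Large White, places that no scaling can change. miR-451 took the 91st and 62nd place and miR-486 the 86th and 105th, nearer the middle. Neither passed the threshold in any pair on either scale, and on totals miR-144 was called for wild boar over Large White alone. After TMM scaling the called members were 1 of 3 for Enshi black over Large White and 1 of 3 for wild boar over Large White. They were 0 of 3 for Enshi black over wild boar. In that last pair 6.25% of miRNAs were higher and 6.25% lower after TMM scaling, and 7.21% and 3.37% on totals.

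miR-451 was the most abundant of the 3 and the most even in rank, at 32 in the Large White, 36 in the Enshi black and 37 in the wild boar library. Its reads numbered 20653, 30821 and 21548 in that order, which is 3750.05, 3219.8 and 2557 CPM after TMM scaling and 2813, 3987 and 2754 CPM on totals. The Large White library was therefore the highest on the first scale and the Enshi black library on the second. For Enshi black over Large White the log2 ratio was −0.22 after TMM (−0.25 to −0.19) and turned to 0.50 on totals (0.48 to 0.53). For wild boar over Large White it was −0.55 (−0.58 to −0.52) after TMM and −0.03 (−0.06 to −0.0029) on totals, where the 2 libraries were almost level. The Enshi black library stood above the wild boar on both scales, at 1.26-fold after TMM (1.24 to 1.28) and 1.45-fold on totals (1.42 to 1.47).

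miR-486 was the scarcest, with 831 reads in the Large White and 1223 in each of the Enshi black and wild boar libraries. Its reads were divided evenly over the 2 precursors mir-486-1 and mir-486-2, at 611.5 each in the Enshi black and wild boar libraries and 415.5 each in the Large White library, so the copies cannot be told apart. The summed reads gave 151, 128 and 145 CPM after TMM scaling and 113, 158 and 156 CPM on totals, in the order Large White, Enshi black, wild boar. After TMM the wild boar and Large White levels did not differ beyond counting error (0.96-fold, 0.88 to 1.05), and on totals the same held for Enshi black and wild boar (1.01-fold, 0.93 to 1.10). For Enshi black over Large White the log2 ratio was −0.24 after TMM (−0.37 to −0.11) and 0.48 on totals (0.35 to 0.61), so its direction depends on the scaling, as for miR-451.

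The ratio of 2 miRNAs within a library needs no scaling, and here the cluster mates differed most between the Large White library and the others. For each 1000 reads of miR-451 there were 422 of miR-144 in the Large White library (411 to 433), 200.4 in the Enshi black (195 to 206) and 162 in the wild boar (156 to 168). The 3 intervals did not overlap. The Large White ratio was 2.61-fold that of the wild boar (2.50 to 2.72) and 2.11-fold that of the Enshi black library (2.03 to 2.18). The Enshi black and wild boar ratios were 1.24-fold apart (1.18 to 1.30). No measure of blood content outside the miRNAs, such as globin RNA, was analysed here.

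miR-486 and miR-451, which are not neighbours in the genome, kept a steadier ratio over the 3 libraries than the cluster mates did, although between the Enshi black and wild boar libraries the cluster mates were closer (1.24-fold against 1.43-fold). For each 1000 reads of miR-451 there were 40.2 of miR-486 in the Large White (37.5 to 43.1), 39.7 in the Enshi black (37.4 to 42.0) and 56.8 in the wild boar (53.5 to 60.1). The Large White ratio was 1.01-fold the Enshi black ratio (0.926 to 1.11), so these did not differ beyond counting error. The wild boar ratio was higher, at 1.41-fold that of the Large White (1.29 to 1.55) and 1.43-fold that of the Enshi black library (1.32 to 1.55). miR-144 per 1000 reads of miR-486 ran from 2850.4 in the wild boar (2670 to 3045) through 5051 in the Enshi black (4749 to 5375) to 10485 in the Large White library (9764 to 11272). That is a 3.68-fold spread (3.34 to 4.06), the widest among the 3 ratios.

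**Figure D2:**
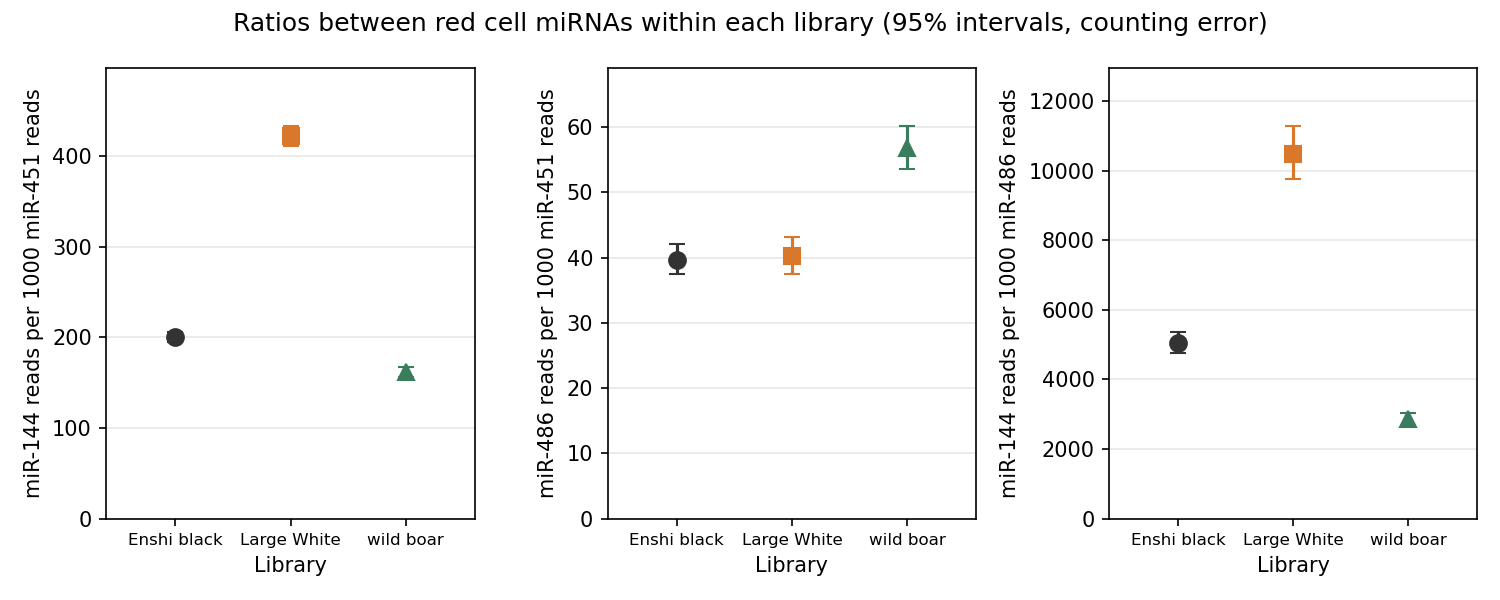
Reads of the first miRNA per 1000 reads of the second within each library, with exact 95% intervals for counting error (axes start at 0). miR-144 per miR-451 and per miR-486 is highest in the Large White library (422 and 10485), whereas miR-486 per miR-451 is near 40 in the Enshi black and Large White libraries and 56.8 in the wild boar library.

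Counting error is not the spread between animals, so the ratios were set beside those of other miRNAs in the same libraries. Over all 21528 pairs of the 208 miRNAs, the median pair changed its ratio 2.09-fold between its highest and lowest library, and 64.0% of pairs changed less than miR-144 and miR-451 did. For miR-486 and miR-451 (1.43-fold) 17.8% of pairs changed less, and for miR-144 and miR-486 (3.68-fold) 79.6%. For miR-486 and miR-451, 1.84% of all pairs were closer between the Enshi black and Large White libraries, 31.8% between the wild boar and Large White, and 49.9% between the Enshi black and wild boar. For miR-144 and miR-451 the shares of closer pairs were 74.9%, 71.8% and 31.9% in the same order. Those for miR-144 and miR-486 were 74.1%, 83.9% and 68.9%. All pairs share the same 3 libraries, so these percentages describe the libraries and are no test.

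Over the 3 libraries, most listed cluster mates elsewhere in the genome were steadier than miR-144 and miR-451. Of 40 listed pairs from 1 cluster, 32 had both mates above the minimum, and their median change was 1.66-fold. The ratio of miR-144 to miR-451 changed more than in 24 of these pairs and less than in 8. Between the Enshi black and wild boar libraries alone it changed more than in 14 and less than in 18. Among the 10 pairs without reads shared with another name, 8 were steadier and 2 were not, with a median of 1.53-fold. The narrowest were miR-99a with let-7c (1.07-fold), miR-23b with miR-27b-3p (1.09-fold) and miR-23a with miR-27a (1.10-fold). The widest were miR-127 with miR-136 (10.2-fold), miR-30e-5p with miR-30c-5p (4.82-fold) and miR-374a-5p with miR-545-5p (4.79-fold). Of these narrowest and widest pairs, all but miR-127 with miR-136 hold reads shared with another name. The narrowest pair without shared reads was miR-503 with miR-424-5p (1.13-fold). Several of the listed miRNAs, such as miR-16 and miR-30c-5p, also come from a second cluster, which can move their ratio.

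**Figure D3:**
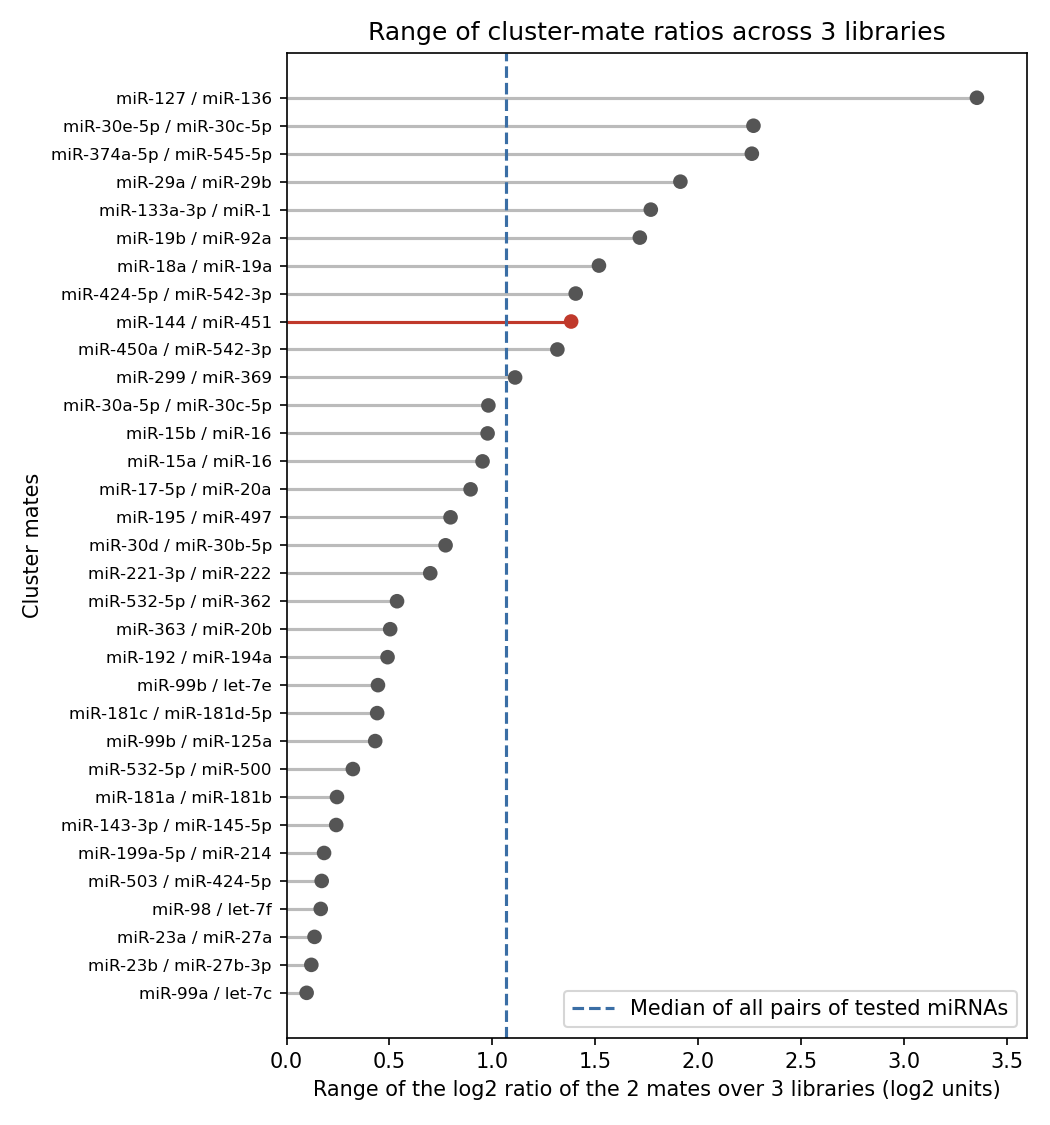
Range over the 3 libraries of the log2 ratio of cluster mates (horizontal axis, log2 units), with miR-144 and miR-451 in red and the median of all 21528 pairs of tested miRNAs as a dashed line. miR-144 and miR-451 lie at 1.38, with 8 of the other 32 pairs wider and 24 narrower.

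Each red cell miRNA was next set against miRNAs of other cells. Per 1000 reads of hepatocyte miR-122, miR-451 stood at 6.79 in the Large White (6.70 to 6.89), 11.7 in the Enshi black (11.5 to 11.8) and 6.97 in the wild boar (6.88 to 7.07). miR-486 likewise was highest in the Enshi black library, at 0.462 (0.437 to 0.489) against 0.273 in the Large White (0.255 to 0.293) and 0.396 in the wild boar (0.374 to 0.419). miR-144 was highest in the Large White library even on this measure, at 2.87 (2.81 to 2.93), with 2.34 in the Enshi black (2.28 to 2.39) and 1.13 in the wild boar (1.09 to 1.17). Of the 4 hepatocyte miRNAs (miR-122, miR-192, miR-194a and miR-885-5p), all but miR-122 were lower for Enshi black over Large White after TMM scaling, beside 11.5% of all miRNAs, and 0 were on totals, beside 2.88%. After TMM miR-122 missed the threshold narrowly, at a log2 ratio of −0.999 against −1.02 for miR-194a. The list median was −1.16 after TMM and −0.44 on totals, beside −0.12 and 0.60 over all 208. For wild boar over Large White only miR-192 was lower after TMM (−1.01, beside 15.4% of all miRNAs) and 0 on totals, and for Enshi black over wild boar 0 of 4 passed the threshold on either scale. In bulk tissue, fewer cells of a type and less RNA per cell cannot be told apart, on either side of such a ratio.

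Leucocyte miRNAs also travel with blood. For wild boar over Large White, 5 of 6 leucocyte miRNAs tested were lower after TMM scaling (15.4% of all miRNAs) and 3 on totals (9.13%). The leucocyte median log2 ratio after TMM was −1.53, beside −0.06 over all 208 miRNAs. In this pair miR-144 had −1.94, miR-451 −0.55 and miR-486 −0.06. For Enshi black over Large White the leucocyte median was −0.40 after TMM, beside −0.12 over all 208. Here miR-144 had −1.29, miR-451 −0.22 and miR-486 −0.24. On totals the leucocyte median of that pair was 0.33, so its direction depends on the scaling. Beside it stood 0.60 over all 208, −0.57 for miR-144, 0.50 for miR-451 and 0.48 for miR-486. miR-142-3p, which blood-forming cells make in quantity, was at 17376 CPM in the Large White, 7817 in the Enshi black and 2347 in the wild boar library after TMM. On totals miR-142-3p was at 13032, 9679 and 2527 CPM in the same order. Summed over the list after TMM, the levels were 21491, 10704 and 3681 CPM. Per 1000 reads of miR-142-3p, miR-451 therefore ran from 216 in the Large White (213 to 219) through 412 in the Enshi black (406 to 417) to 1089.5 in the wild boar library (1069 to 1111). miR-486 ran in the same order from 8.68 (8.10 to 9.30) through 16.3 (15.4 to 17.3) to 61.8 (58.3 to 65.5), and miR-144 was again highest in the wild boar library, at 176 (170.0 to 183) against 82.6 in the Enshi black (80.4 to 84.7) and 91.0 in the Large White library (89.1 to 93.1). Whether the leucocyte reads came from blood or from the liver tissue itself was not tested. The part of blood leucocytes in the levels of the red cell miRNAs was not tested either.

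In the Enshi black library against the Large White, 1 leucocyte miRNA was higher (miR-146b, at a log2 ratio of 1.22 after TMM) and 1 lower (miR-142-3p, −1.15, which was −0.43 on totals), where 2.4% of all miRNAs were higher and 11.5% lower. Against the wild boar, 5 of 6 were higher in the Enshi black library on both scales, beside 6.25% of all miRNAs after TMM and 7.21% on totals. The platelet and endothelial list had 3 members tested, miR-126-3p, miR-126-5p and miR-424-5p, and none was past the threshold in any pair after TMM. On totals and against the Large White library, miR-126-3p and miR-126-5p were higher in the Enshi black, at log2 ratios of 1.31 and 1.44, and miR-126-5p in the wild boar, at 1.27. On that scale 27.4% and 21.6% of all miRNAs were higher in these pairs, with medians of 0.60 and 0.46. The platelet and myeloid miR-223 was not analysed here.

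miR-16 and miR-92a, which are abundant in red cells but expressed widely, gave another comparison. Of the 5 tested miRNAs on the list of further red cell and haemolysis miRNAs (miR-15a, miR-16, miR-92a, miR-185 and miR-363), 0 were past the threshold against the Large White library after TMM scaling. On totals miR-16 and miR-363 were higher in the Enshi black library, at log2 ratios of 1.21 and 1.36, and miR-92a in the wild boar library, at 1.32. These are 2 of 5 and 1 of 5, near the 27.4% and 21.6% of all miRNAs higher on totals in those pairs. miR-363 was higher in the Enshi black than in the wild boar library on both scales, at 1.26 after TMM, as were 6.25% of all miRNAs after TMM and 7.21% on totals. The list's median log2 ratio after TMM was 0.25 for Enshi black over Large White, −0.60 for wild boar over Large White and 0.37 for Enshi black over wild boar, beside −0.12, −0.06 and −0.05 over all 208. The list was split for wild boar over Large White after TMM. There miR-92a had 0.80 and miR-16 0.31, against −0.64 for miR-15a, −0.60 for miR-185 and −0.63 for miR-363. Summed over the list together with miR-96, the TMM-scaled levels were 10356 CPM in the Large White, 12234 in the Enshi black and 13426 in the wild boar library. miR-16, miR-15a and miR-92a hold reads shared with another name. Of the other listed miRNAs, miR-96 was below the minimum, and miR-25 and miR-93 were not analysed here.

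The quotient of miR-451 to miR-23a, used in serum as an index of haemolysis, was highest in the Large White library. There were 5383 reads of miR-451 per 1000 of miR-23a in the Large White (5200.0 to 5573), 3250.5 in the Enshi black (3176 to 3326) and 2770.02 in the wild boar (2699 to 2843). Cells of solid tissue make miR-23a themselves, so here the quotient also depends on its denominator, which had 3837 reads in the Large White against 9482 in the Enshi black and 7779 in the wild boar library. Per 1000 reads of miR-16 the order was the same, with 1097 of miR-451 in the Large White (1076 to 1119), 673 in the Enshi black (663 to 683) and 601 in the wild boar (591 to 612). The library with the most miR-451 thus depended on the denominator, being the Enshi black per miR-122, the wild boar per miR-142-3p and the Large White per miR-16 or miR-23a. miR-144 was highest in the Large White library per miR-122, miR-16 and miR-23a, and in the wild boar library per miR-142-3p.

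**Figure D4:**
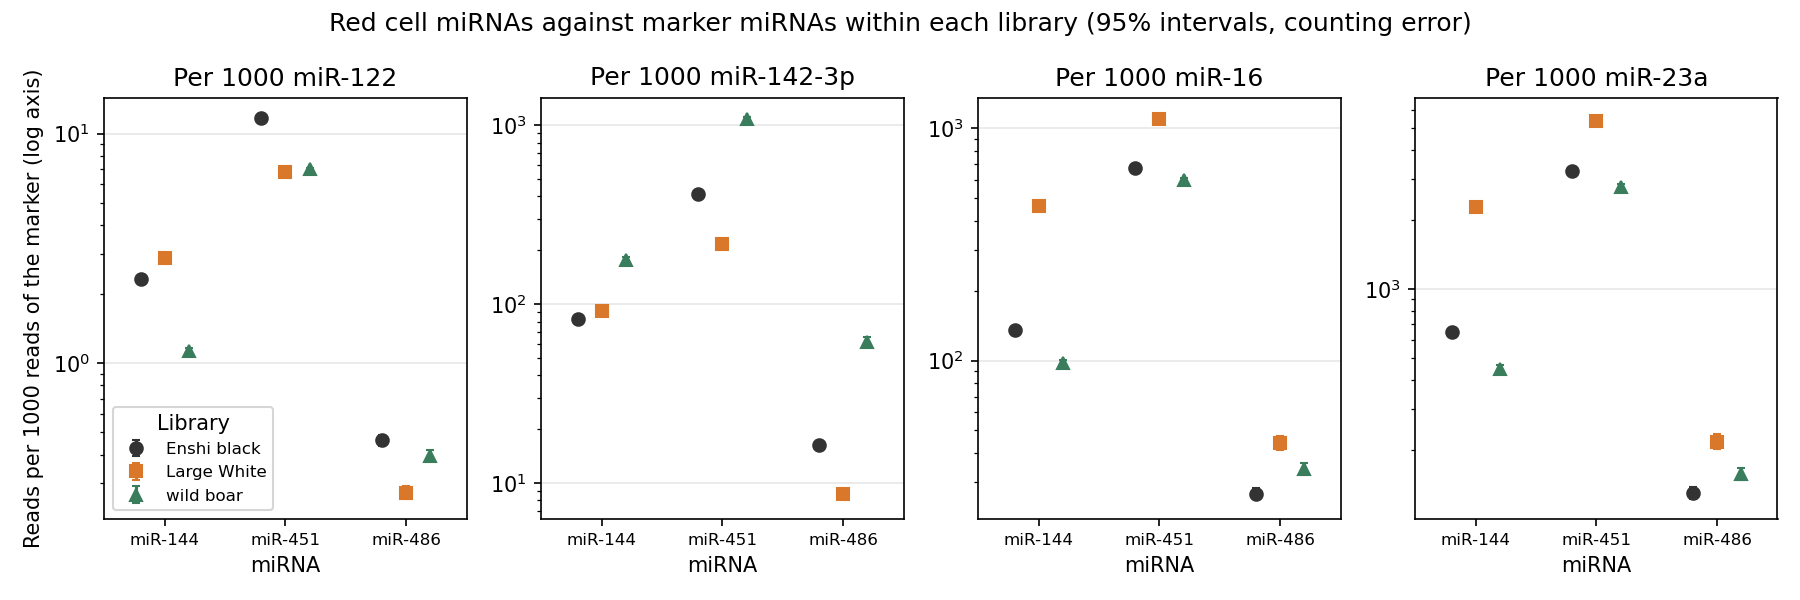
Reads of miR-144, miR-451 and miR-486 per 1000 reads of hepatocyte miR-122, leucocyte miR-142-3p, miR-16 and miR-23a within each library (log axes, exact 95% intervals for counting error, often smaller than the symbols). For miR-451 the highest library is the Enshi black per miR-122 (11.7), the wild boar per miR-142-3p (1089.5) and the Large White per miR-16 (1097) and miR-23a (5383).

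Because miR-486 is also made in striated muscle, the muscle miRNAs were read beside it. Their summed level after TMM scaling was 407 CPM in the Large White, 223 in the Enshi black and 176 in the wild boar library. Most of it was miR-499-5p (264, 148 and 131 CPM) and miR-1 (106, 54.9 and 22.0 CPM). For wild boar over Large White both were lower, at log2 ratios of −1.01 and −2.27, where 15.4% of all miRNAs were lower and miR-486 had −0.06. The third tested, miR-133a-3p, had −0.50 and was not called. On totals miR-1 was still lower in this pair, at −1.75, beside 9.13% of all miRNAs. miR-499-5p was under the threshold there, at −0.49, and miR-133a-3p had 0.02. For Enshi black over wild boar miR-1 was higher on both scales, at 1.32 after TMM and 1.52 on totals. In that pair 6.25% and 7.21% of all miRNAs were higher, and miR-499-5p and miR-133a-3p were not called. The Enshi black and Large White levels were close on totals, at 183 and 198 CPM for miR-499-5p and 68.0 and 79.5 for miR-1. For miR-133a-3p they were 23.7 and 22.1 CPM. miR-1, miR-133a-3p, miR-133b and miR-206 hold reads shared with another name. miR-133b and miR-206 had at most 32 reads in a library. The heart and slow muscle miR-208b had 0 reads in each library, which allows up to 0.545 CPM in the Large White, 0.313 in the Enshi black and 0.356 in the wild boar library after TMM. The part of muscle miRNA in the miR-486 reads was not tested.

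The miRNAs whose pair of log2 ratios (Enshi black over Large White and wild boar over Large White) lay nearest to that of each red cell miRNA were other miRNAs than its partners. The measure was the distance between the pairs of log2 ratios, over the 3 libraries, and scaling leaves it unaffected because it shifts all miRNAs alike. Nearest to miR-144 were miR-29b (0.11), miR-545-3p (0.13) and miR-7 (0.21). Its cluster mate miR-451 was the 60th nearest, at a distance of 1.75, and miR-486 the 95th, at 2.15. Nearest to miR-451 were miR-1343 (0.07), miR-20a (0.07) and miR-15a (0.10), with miR-486 the 46th (0.50) and miR-144 the 178th. Nearest to miR-486 were miR-342 (0.02), miR-26a (0.07) and miR-345-5p (0.07), with miR-451 the 66th. miR-29b, miR-20a and miR-15a hold reads shared with another name.

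**Figure D5:**
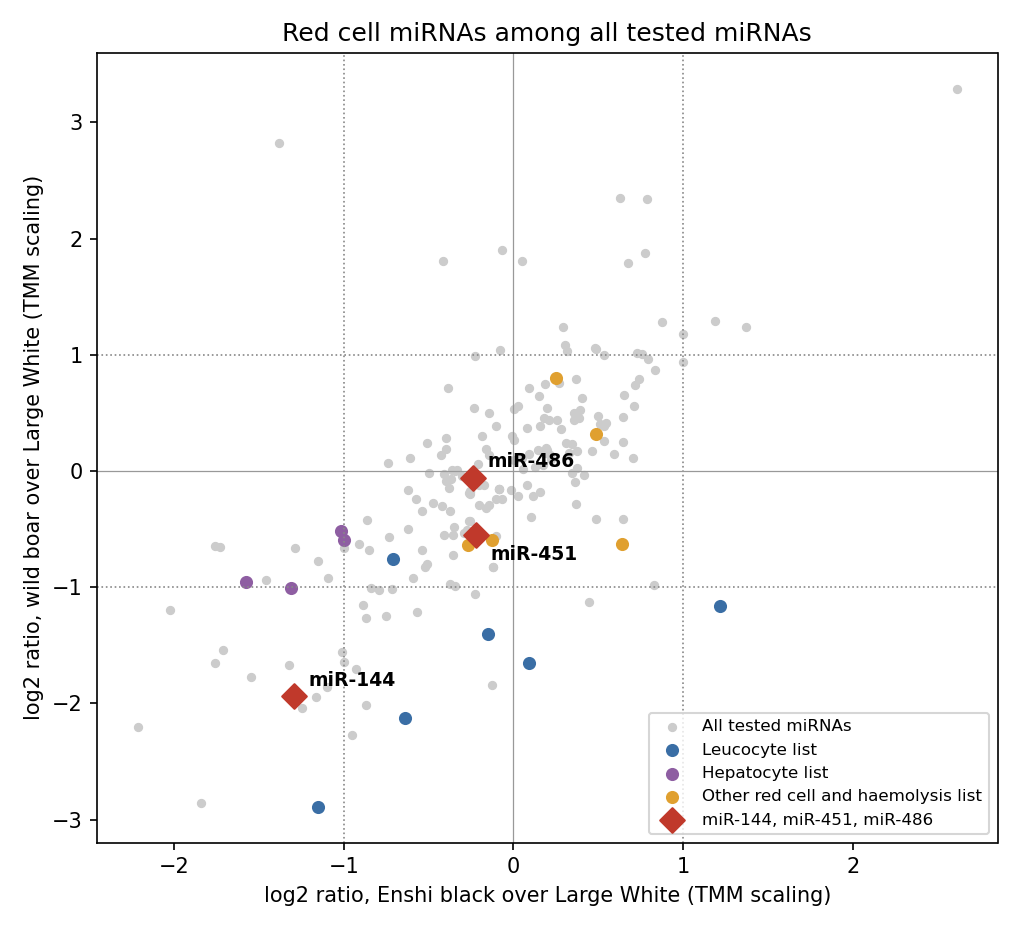
Log2 ratios for Enshi black over Large White (horizontal) and for wild boar over Large White (vertical) after TMM scaling for the 208 miRNAs tested, with miR-144, miR-451 and miR-486 as red diamonds and 3 marker lists in colour. Dotted lines mark 2-fold. miR-144 (−1.29, −1.94) lies past both, whereas miR-451 (−0.22, −0.55) and miR-486 (−0.24, −0.06) lie among the bulk of the miRNAs.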

How the data were processed

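Per the labels' protocols, liver RNA was purified with TRIzol, a gel slice of 14 to 40 nucleotides was taken, and the libraries were read on an Illumina HiSeq instrument. The submitters' processing notes name the build Sscrofa10.2. How reads were aligned, counted and annotated is not given in the sources used here. Files as deposited hold expected counts per mature miRNA and precursor, with fractions where reads match several places, and the deposited RPM are those counts per 1000000 of the column's sum, which were not compared. Whole counts had been assumed, so the expected counts were summed over precursors and rounded. Rows of 6 names that repeat the reads of another name were left out, leaving 405 names. A name was taken to share reads where its sum was more than 0.05 from a whole number (65 of 208 tested).

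TMM factors were computed with edgeR 4.0.16 in R 4.3.3 over the 208 miRNAs whose mean CPM reached 10. Intervals are exact: conditional binomial for ratios, Clopper-Pearson for shares, and conditional exact for ratios of ratios. They treat reads as independent molecules, which reads without molecular identifiers are not. A count of 0 was given a floor of 3 counts. The ratio rule was run on random counts simulated from the Large White profile with known folds. These had no scaling to estimate and no spread between animals, so they tested the rule for counting error alone. Named miRNAs were the 3 red cell miRNAs, up to 4 members of each of 5 lists in order of mean CPM, further list members past the threshold, the 3 nearest patterns to each, and the 3 widest and narrowest cluster-mate pairs. The members and lists were chosen with earlier results of these data known. miR-208b, miR-133b and miR-206 were named after their values were seen. Alternatives were library totals, totals without miR-122, DESeq2 1.42.0 size factors, other filters and thresholds, thinned libraries, TMM over other sets of miRNAs, and 1 precursor per miRNA.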

Additional observations from a re-analysis of the deposited data

How the results depend on the processing

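The ratios between red cell miRNAs within a library kept their value when counts were thinned to the smallest total or left unrounded. With 1 precursor per miRNA, miR-486 lost the reads given to its other copy by construction. miR-486 per 1000 miR-451 was then 20.1, 19.8 and 28.4, and miR-144 per 1000 miR-486 was 20969.9, 10101 and 5701, in the order Large White, Enshi black, wild boar. No paired analysis was possible because each breed has 1 library.

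Log2 ratios between libraries moved with the scaling. On library totals those of Enshi black over Large White were −0.57 for miR-144, 0.50 for miR-451 and 0.48 for miR-486. Those of wild boar over Large White were −1.41, −0.030 and 0.47, and those of Enshi black over wild boar 0.84, 0.53 and 0.017. On totals without miR-122 they were −0.74, 0.34 and 0.32, then −1.46, −0.077 and 0.42, then 0.72 and 0.41 for miR-144 and miR-451. With DESeq2 size factors, miR-144 had −1.18 and −1.86 in the first 2 pairs, miR-451 −0.11, −0.48 and 0.37, and miR-486 0.017 for wild boar over Large White. TMM over all miRNAs with a count gave −1.21 for miR-144 in the first pair and −0.13, −0.51 and 0.38 for miR-451. TMM without miRNAs that share reads gave −1.10 and −1.79 for miR-144, −0.031, −0.41 and 0.38 for miR-451, and −0.051 and 0.086 for miR-486. miR-144 did not pass a 4-fold threshold, at −1.29 and −1.94. The direction held in each of these for miR-144 in all pairs, and for miR-451 in the 2 pairs with the wild boar.

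The numbers of miRNAs past the threshold, 5 higher and 24 lower in Enshi black over Large White, 21 and 32 in wild boar over Large White, and 13 and 13 in Enshi black over wild boar, became 57 and 6, 45 and 19, and 15 and 7 on totals. On totals without miR-122 the first 2 pairs had 37 and 8, and 43 and 19. Without an expression filter they were 12 and 43, 33 and 51, and 20 and 29. Where the mean CPM had to reach 100 they were 1 and 15, 11 and 20, and 6 and 8, and at 4-fold 1 and 2, 4 and 7, and 1 and 2. The cause was not tested where the filter and threshold were unchanged. Depth limits miR-486 most, whose 831 reads in the Large White library leave intervals of about 0.13 on either side of a log2 ratio.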
